A study of Mus musculus with 12 samples.

Results

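The translation initiation factors are the proteins that bring the ribosome, the initiator tRNA and an mRNA together at a start codon. The genes described here were all protein-coding rows of the deposited count table whose name began with *Eif* and a digit from 1 to 6, except *Eif2s3x* and *Eif2s3y*, which lie on the sex chromosomes. The rule used names only and found 55 genes among 55401. They were measured by RNA-seq in 12 libraries of Pax7-ZsGreen+ satellite cells, the muscle stem cells, sorted from the hind limbs of adult mice. All mice carried *Cxcr4* FL/FL, a conditional allele of the chemokine receptor gene, and the *Pax7*-ZsGreen reporter, and all received 5 daily injections of 80 mg/kg tamoxifen. KO mice also carried *Pax7*-creERT2, so the allele could be deleted only in cells that express *Pax7*, and WT mice carried no cre. Freshly sorted cells are called quiescent here (4 WT and 4 KO libraries) and cells cultured overnight are called activated (2 WT and 2 KO libraries). The labels do not say that the libraries came from separate animals, so the p-values measure the spread between these libraries.

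As background, initiation starts when eIF2 carries the initiator tRNA to the small ribosomal subunit together with eIF1, eIF1A, eIF3 and eIF5, while the eIF4F complex binds the mRNA cap and eIF5B joins the large subunit. The exchange factor eIF2B recharges eIF2 with GTP, and kinases that phosphorylate the alpha subunit of eIF2 block that step. Quiescent satellite cells are known for a low rate of protein synthesis and for phosphorylated eIF2 alpha, and their activation is known to go with growth and with mTORC1 signalling, which acts on initiation through the eIF4E binding proteins.

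*Cxcr4* had 61.2, 59.1, 89.6 and 112 CPM (library-size-scaled counts, by edgeR's TMM method) in the quiescent WT libraries, 17.6, 21.2, 12.5 and 17.1 in the quiescent KO libraries, 33.3 and 14.4 in the activated WT libraries and 5.39 and 13.7 in the activated KO libraries. The KO libraries lay below the WT libraries in each state, in the activated state by a narrow margin between 14.4 and 13.7. The quiescent libraries held 12775593 to 23717013 counts and the activated libraries 3172164 to 5427280, of which a ribosomal RNA gene took 11.5 to 40.3% in the activated libraries and under 1% in the quiescent ones. *Xist* ranged from 1.2 to 7.17 CPM in the quiescent and from 451 to 817 CPM in the activated libraries, and *Eif2s3y* from 27.5 to 45.7 CPM against 0, so that state, depth and the sex of the mice cannot be told apart in any comparison of activated with quiescent cells. The 8 satellite cell markers summed to 4300 to 6766 CPM in quiescent and 1778 to 2452 CPM in activated libraries, and 8 markers of mature muscle fibres to 259 to 884 and 6299 to 15544 CPM. Markers of other cells were present in both states, with sums of 232 to 1103 CPM in quiescent and 83.6 to 640 CPM in activated libraries for 6 endothelial genes, 701 to 2030 and 229 to 422 CPM for 6 genes of fibroadipogenic progenitors, and 83.8 to 356 and 39.4 to 64.8 CPM for 6 blood cell genes. The sums were 448 to 1705 and 159 to 342 CPM for 5 genes of smooth muscle and pericytes and 162 to 376 and 29.3 to 133 CPM for 3 Schwann cell genes, and none of these markers was at 0 throughout a state. The part of these markers, of sex and of depth in the results below was not tested. In such bulk libraries, fewer cells of a type and less RNA per cell cannot be told apart.

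Initiation factor mRNAs took 1.08 to 1.33% of the counts outside the ribosomal RNA gene in quiescent libraries and 1.38 to 1.64% in activated libraries, without overlap. Other measures of the total did overlap. As a share of all counts it was 1.07 to 1.32% in quiescent and 0.864 to 1.45% in activated libraries. Summed in CPM it was 9713 to 14790 in quiescent and 11215 to 13350 in activated libraries, so a rise of the total depends on the scaling. Of the 55 genes, 54 had enough counts for a test, all but *Eif4a3l2*. In WT cells 19 of them were higher in activated than in quiescent libraries and 5 were lower at an adjusted p under 0.05 by edgeR's quasi-likelihood test, which is 35.2% and 9.26% of those tested, beside a background of 11.5% and 18.3% of all 25771 genes tested. In KO cells 21 were higher and 7 lower, 38.9% and 13%, beside a background of 13.3% and 20.4%. The same 18 genes rose and the same 5 fell in both genotypes, which makes up 95.8% of the WT calls and 82.1% of the KO calls, no gene was called in opposite directions, and 25 of the 54 were called in neither. These 2 comparisons share no library, but they share the fit and the differences in depth and sex. Over all libraries, 20 members had every activated library above every quiescent one, 9 had every activated library below, and 26 overlapped. The share of all genes without overlap was not counted, so these numbers describe the members only. The median log2 fold change of the members was 0.28 in WT and 0.27 in KO cells, against -0.92 and -0.96 over all genes tested. Among genes with a mean over 10 CPM the medians were -0.11 and -0.08 over 8809 genes and 0.40 and 0.49 over the 47 members.

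**Figure D1:**
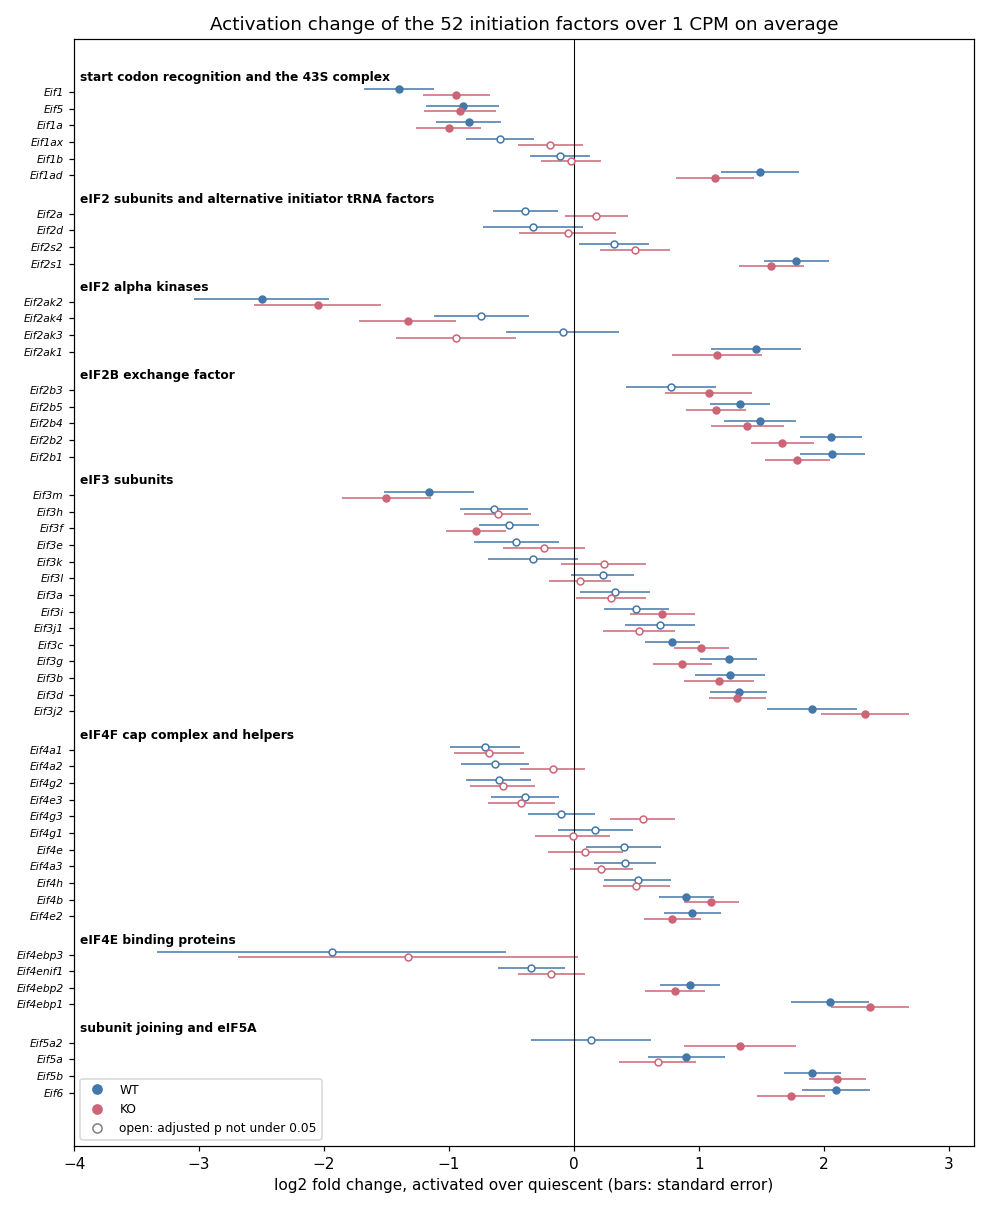
The log2 fold change of activated over quiescent cells (horizontal axis, with standard error) is plotted for the 52 initiation factors with a mean over 1 CPM, by role, in WT (blue) and KO (red) cells. Filled points have an adjusted p under 0.05 by edgeR, and the eIF2B subunits all lie to the right of 0, while *Eif1*, *Eif5*, *Eif1a*, *Eif3m* and *Eif2ak2* lie to the left in both genotypes.

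How far these calls rested on single libraries differed between rises and falls. Of the genes that rose, 15 of 19 in WT and 12 of 21 in KO cells were called in each of 6 fits that left out 1 library of the compared groups, and 10 were called in every such fit in both genotypes. These 10 were *Eif2b1*, *Eif2b2*, *Eif2b4*, *Eif2b5*, *Eif2s1*, *Eif3d*, *Eif3j2*, *Eif4ebp1*, *Eif5b* and *Eif6*. Of the genes that fell, only *Eif1* and *Eif2ak2* were called in every such fit in WT cells and none of 7 was in KO cells. Without KO activated replicate 1, the KO counts were 13 higher and 2 lower, and without KO activated replicate 2 there were 3 lower. Without WT activated replicate 1 or 2, the WT count of falls was 3 or 2. Where 1 library remained in a group, it was assumed to vary like the libraries of the other groups. How many of all genes kept their calls in these fits was not counted, so these numbers describe the members only.

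The 5 subunits of eIF2B, the exchange factor that returns eIF2 to its GTP-bound form, were higher in every activated library than in every quiescent library. *Eif2b1*, the alpha subunit (ENSMUSG00000029388, GRCm38 chromosome 5, 124570213 to 124579131), had 8.67, 7.38, 10 and 9.49 CPM in quiescent WT, 10.3, 9.84, 10.8 and 9.3 CPM in quiescent KO, 35 and 40.3 CPM in activated WT and 39.8 and 29.9 CPM in activated KO libraries. Its quiescent libraries all lay at or below 10.8 CPM and its activated ones at or above 29.9. The log2 fold change of *Eif2b1* was 2.07 (standard error, SE, of 0.26, with adjusted p = 6.86e-06 by edgeR's quasi-likelihood test) in WT and 1.79 (0.26, adjusted p = 2.94e-05) in KO cells. The log2 fold changes of the other subunits in WT and KO cells were 2.06 and 1.67 for *Eif2b2* (beta), 1.49 and 1.39 for *Eif2b4* (delta) and 1.33 and 1.14 for *Eif2b5*, the catalytic epsilon subunit, and all of these passed the test. *Eif2b3* (gamma) had a log2 fold change of 0.78 in WT cells, which did not pass (adjusted p = 0.108), and 1.08 in KO cells, which did (adjusted p = 0.0234) but not without KO quiescent replicate 3, KO activated replicate 1 or KO activated replicate 2 (highest adjusted p = 0.212). The summed level of the 5 genes was 62.7 to 82.3 CPM in quiescent and 189 to 240 CPM in activated libraries.

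eIF2 itself did not move as a unit. *Eif2s1*, the alpha subunit that the stress kinases phosphorylate, had 37, 35.5, 44.7 and 63.9 CPM in quiescent WT, 60.6, 42.4, 43.7 and 53.7 CPM in quiescent KO, 133 and 180 CPM in activated WT and 159 and 142 CPM in activated KO libraries. The states did not overlap, with 63.9 CPM in the highest quiescent and 133 CPM in the lowest activated library. *Eif2s1* had a log2 fold change of 1.78 (SE 0.26, adjusted p = 3.42e-05) in WT and 1.58 (0.26, adjusted p = 0.000108) in KO cells by edgeR's test. *Eif2s2*, the beta subunit, had log2 fold changes of 0.32 and 0.49, which did not pass (adjusted p = 0.369 and 0.174). The gamma subunit is encoded on the X chromosome by *Eif2s3x* and, in males, also on the Y chromosome by *Eif2s3y*, both outside the rule. *Eif2s3x* ranged from 19.7 to 31.3 CPM in quiescent and from 53.6 to 74.2 CPM in activated libraries, but the sum of both genes ranged from 53.4 to 73.2 CPM in quiescent and from 53.6 to 74.2 CPM in activated libraries. *Eif2a* and *Eif2d*, which can deliver initiator tRNA without eIF2, had log2 fold changes between -0.39 and 0.18 and passed in neither genotype.

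The 4 kinases of eIF2 alpha went different ways. *Eif2ak2* (PKR), which senses double-stranded RNA, had 35.1, 25.5, 21.2 and 13.3 CPM in quiescent WT, 35.9, 13.3, 25.7 and 13.6 CPM in quiescent KO, 3.76 and 4.82 CPM in activated WT and 3.08 and 7.53 CPM in activated KO libraries. All activated libraries lay below all quiescent ones although the quiescent libraries of each genotype spread widely. It fell by 2.50 on the log2 scale in WT (SE 0.54, adjusted p = 0.00145 by edgeR) and by 2.05 in KO cells (0.51, adjusted p = 0.00427), the latter with an adjusted p of 0.083 without KO activated replicate 1. *Eif2ak1* (HRI), which responds to heme and to oxidative stress, had 9.08, 12.4, 10.4 and 15.3 CPM in quiescent WT, 14.9, 5.74, 14.7 and 17.2 CPM in quiescent KO, 27.9 and 37.2 CPM in activated WT and 32.9 and 25.6 CPM in activated KO libraries. Its states did not overlap either, with the activated libraries on top. *Eif2ak1* had a log2 fold change of 1.46 (SE 0.36, adjusted p = 0.0041 by edgeR) in WT and 1.15 (0.36, adjusted p = 0.0179) in KO cells, the latter with an adjusted p of 0.182 without KO activated replicate 1. *Eif2ak4* (GCN2), which senses uncharged tRNA, passed in KO cells (log2 fold change -1.33, adjusted p = 0.0135) but not without KO activated replicate 2 (adjusted p = 0.18), and had -0.74 in WT cells (adjusted p = 0.14). *Eif2ak3* (PERK), the kinase of the endoplasmic reticulum stress response, had log2 fold changes of -0.09 and -0.94 and did not pass (adjusted p = 0.883 and 0.133). The sum of the 4 kinases was 49.7 to 79 CPM in quiescent and 43.6 to 59.6 CPM in activated libraries, which overlapped.

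Among the factors that read the start codon, the most abundant were lower in activated cells. *Eif1*, which keeps the scanning ribosome from stopping at wrong codons (ENSMUSG00000035530, chromosome 11, 100319885 to 100322096), had 999, 993, 1447 and 1476 CPM in quiescent WT, 1300, 1199, 1060 and 1363 CPM in quiescent KO, 461 and 471 CPM in activated WT and 559 and 723 CPM in activated KO libraries. Every activated library lay below every quiescent one. *Eif1* fell by 1.40 on the log2 scale in WT (SE 0.28, adjusted p = 0.000696 by edgeR) and by 0.94 in KO cells (0.27, adjusted p = 0.0116), the latter with an adjusted p of 0.211 without KO activated replicate 1. *Eif5*, the GTPase activator of eIF2, had 977, 951, 1391 and 1459 CPM in quiescent WT, 1140, 963, 1057 and 1561 CPM in quiescent KO, 729 and 564 CPM in activated WT and 666 and 595 CPM in activated KO libraries. These ranges did not overlap, but the margin, 951 against 729 CPM, was narrower than the spread of the quiescent libraries. *Eif5* fell by 0.89 in WT (SE 0.29, adjusted p = 0.0258 by edgeR) and by 0.91 in KO cells (0.29, adjusted p = 0.0208). Both calls of *Eif5* rested on single libraries: without WT quiescent replicate 3 or 4 or WT activated replicate 1 or 2 the adjusted p was 0.0636, 0.0546, 0.0916 or 0.301, and without KO activated replicate 1 or 2 it was 0.116 or 0.194. *Eif1a*, which works beside eIF1 in scanning, fell by 0.84 and 1.00 (adjusted p = 0.0193 and 0.00606), and the WT call was lost without either WT activated library (highest adjusted p = 0.217) and the KO call without KO activated replicate 2 (0.149). *Eif1ax*, its X-linked paralog, and *Eif1b* had log2 fold changes between -0.59 and -0.02 and did not pass. *Eif1ad*, an eIF1A-like protein with a role in ribosome maturation, ran the other way. It had 27.4, 29.9, 50.2 and 58 CPM in quiescent WT, 44.1, 38.3, 35.9 and 61.9 CPM in quiescent KO, 103 and 130 CPM in activated WT and 118 and 79.6 CPM in activated KO libraries. All activated libraries of *Eif1ad* were above the quiescent ones, with log2 fold changes of 1.49 (SE 0.31, adjusted p = 0.00102 by edgeR) and 1.13 (0.31, adjusted p = 0.0084), the KO value with an adjusted p of 0.175 without KO activated replicate 1.

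At the last steps of initiation, *Eif5b*, the GTPase that joins the large subunit (ENSMUSG00000026083, chromosome 1, 37998010 to 38055579), had 81.5, 81.7, 84.5 and 98.6 CPM in quiescent WT, 95, 70.4, 80.6 and 107 CPM in quiescent KO, 307 and 346 CPM in activated WT and 365 and 396 CPM in activated KO libraries. The gap between the states was wider than the range within either. *Eif5b* had a log2 fold change of 1.91 (SE 0.23, adjusted p = 3.25e-06 by edgeR) in WT and 2.11 (0.23, adjusted p = 9.59e-07) in KO cells, the smallest adjusted p of the members in each genotype. *Eif6*, which is needed to build the large subunit and keeps it from joining too early (ENSMUSG00000027613, chromosome 2, 155819832 to 155826925), had 82, 88.6, 101 and 130 CPM in quiescent WT, 79.8, 94.7, 109 and 148 CPM in quiescent KO, 464 and 395 CPM in activated WT and 442 and 281 CPM in activated KO libraries. The states did not overlap, and KO activated replicate 2 was the lowest of the activated libraries. *Eif6* had log2 fold changes of 2.10 (SE 0.27, adjusted p = 9.36e-06 by edgeR) and 1.74 (0.27, adjusted p = 6.26e-05). *Eif5a*, the hypusine-bearing factor that helps stalled ribosomes, had 671, 641, 881 and 1038 CPM in quiescent WT, 594, 824, 836 and 1232 CPM in quiescent KO, 1327 and 1679 CPM in activated WT and 1799 and 973 CPM in activated KO libraries. Its WT states were apart, while KO activated replicate 2 lay within the quiescent KO range. *Eif5a* passed in WT cells (log2 fold change 0.90, SE 0.31, adjusted p = 0.0353 by edgeR), though not without WT quiescent replicate 1 or 2 (adjusted p = 0.0744 and 0.074). Without WT activated replicate 2, which left 1 library in that group, the WT log2 fold change was 0.77 and the call was not kept either. In KO cells *Eif5a* did not pass (0.67, SE 0.31, adjusted p = 0.102 by edgeR) in the fit to all libraries. The KO value passed without KO quiescent replicate 4 (adjusted p = 0.0261), with all libraries thinned to the shallowest (0.0369) and with a replicate block (0.97, adjusted p = 0.00686). Its scarce paralog *Eif5a2* had 9.5, 8.09, 5.09 and 4.67 CPM in quiescent WT, 9.6, 2.94, 5.82 and 5.48 CPM in quiescent KO, 6.86 and 8.32 CPM in activated WT and 9.76 and 20.3 CPM in activated KO libraries. Only KO activated replicate 2 stood clear of the other libraries. *Eif5a2* had log2 fold changes of 0.14 (SE 0.48, adjusted p = 0.835 by edgeR) in WT and 1.33 (0.45, adjusted p = 0.0275) in KO cells, and without KO activated replicate 2 the KO value was 0.73 (adjusted p = 0.447), and without KO quiescent replicate 2 it was 1.13 (adjusted p = 0.0523).

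**Figure D2:**
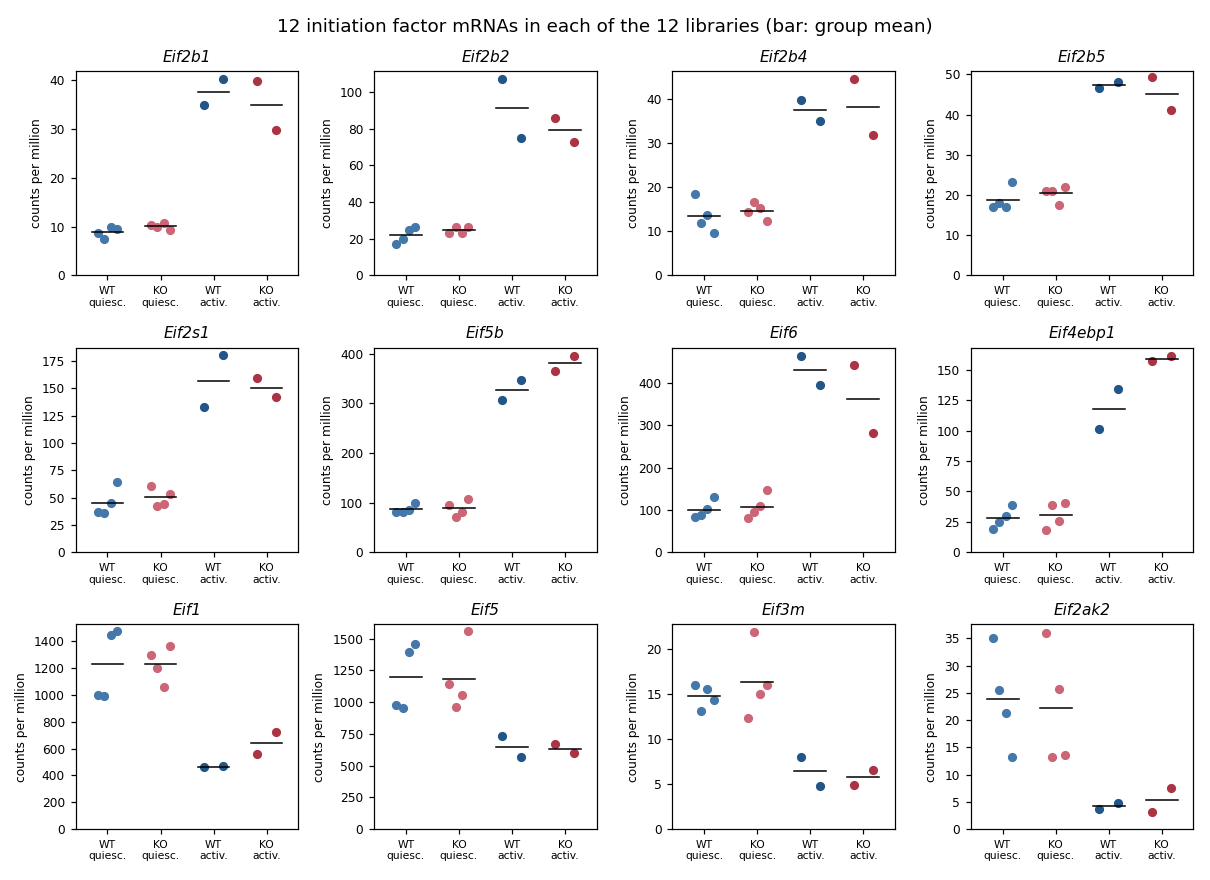
Each panel shows 1 initiation factor, with CPM on a vertical axis that starts at 0, a point for each library and a bar at each group mean (4 libraries per quiescent group, 2 per activated group). The activated libraries lie above the quiescent ones for the first 8 genes and below them for *Eif1*, *Eif5*, *Eif3m* and *Eif2ak2*.

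At the cap, 2 of the 4 genes for proteins that bind eIF4E rose in both genotypes. *Eif4ebp1* (4E-BP1), the repressor that mTORC1 releases from eIF4E, had 19.1, 25.2, 29.8 and 39.1 CPM in quiescent WT, 18, 38.9, 25.4 and 40.8 CPM in quiescent KO, 101 and 134 CPM in activated WT and 157 and 161 CPM in activated KO libraries. No activated library came near the quiescent range. The log2 fold change of *Eif4ebp1* was 2.05 (SE 0.31, adjusted p = 4.86e-05 by edgeR) in WT and 2.37 (0.31, adjusted p = 8.33e-06) in KO cells. *Eif4ebp2*, its paralog, had 120, 121, 110 and 118 CPM in quiescent WT, 161, 107, 129 and 125 CPM in quiescent KO, 174 and 274 CPM in activated WT and 235 and 224 CPM in activated KO libraries. The states were apart, with WT activated replicate 1 close to the highest quiescent library. *Eif4ebp2* rose by 0.93 (SE 0.24, adjusted p = 0.00579 by edgeR) and 0.81 (0.24, adjusted p = 0.0129), and the adjusted p was 0.187 without WT activated replicate 2 and 0.117 or 0.065 without KO activated replicate 1 or 2. *Eif4ebp3* was at 3.47 CPM or below in every library and, like *Eif4enif1*, which carries eIF4E into the nucleus, did not pass.

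*Eif4e*, the cap-binding protein, had 102, 125, 160 and 214 CPM in quiescent WT, 118, 149, 153 and 230 CPM in quiescent KO, 191 and 206 CPM in activated WT and 199 and 146 CPM in activated KO libraries. The states overlapped. Its log2 fold changes were 0.40 (SE 0.30, adjusted p = 0.302 by edgeR) and 0.09 (0.30, adjusted p = 0.834), and the KO value was -0.16 without KO activated replicate 1. *Eif4e2* (4EHP), a cap-binding relative that represses the mRNAs it binds, had 53.1, 53.7, 67.1 and 69.1 CPM in quiescent WT, 67.5, 65.2, 63.3 and 83.9 CPM in quiescent KO, 123 and 111 CPM in activated WT and 136 and 106 CPM in activated KO libraries. All of its activated libraries were above the quiescent ones. *Eif4e2* had log2 fold changes of 0.95 (SE 0.23, adjusted p = 0.00418 by edgeR) and 0.79 (0.23, adjusted p = 0.0125), the KO value with an adjusted p of 0.239 without KO activated replicate 1. *Eif4b*, which stimulates the helicase eIF4A, had 297, 277, 278 and 270 CPM in quiescent WT, 281, 239, 272 and 293 CPM in quiescent KO, 477 and 570 CPM in activated WT and 642 and 523 CPM in activated KO libraries. Its quiescent libraries kept within a narrow band below every activated one. *Eif4b* had log2 fold changes of 0.90 (SE 0.22, adjusted p = 0.00425 by edgeR), with an adjusted p of 0.068 without WT activated replicate 2, and 1.10 (0.22, adjusted p = 0.000656).

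The scaffold and helicase genes of eIF4F did not pass in the fit to all libraries. *Eif4g1*, the main scaffold, had 605, 519, 732 and 878 CPM in quiescent WT, 703, 509, 638 and 1005 CPM in quiescent KO, 886 and 657 CPM in activated WT and 849 and 569 CPM in activated KO libraries. These ranges overlapped throughout, and its log2 fold changes of 0.17 and -0.01 (SE 0.30 each, adjusted p = 0.657 and 0.982 by edgeR) were smaller than their errors. *Eif4g3*, another scaffold, had 128, 113, 131 and 142 CPM in quiescent WT, 79, 98.4, 143 and 155 CPM in quiescent KO, 122 and 117 CPM in activated WT and 163 and 186 CPM in activated KO libraries. The states overlapped, though both KO activated libraries were above all others, and its log2 fold changes were -0.10 and 0.55 (SEs 0.27 and 0.26, adjusted p = 0.777 and 0.108 by edgeR), the KO value passing without KO quiescent replicate 4 (adjusted p = 0.0367) and with all libraries thinned to the shallowest (0.65, adjusted p = 0.0359). *Eif4a1*, the main helicase, had 1538, 1552, 2181 and 2218 CPM in quiescent WT, 2120, 1886, 1660 and 2300 CPM in quiescent KO, 1089 and 1204 CPM in activated WT and 1429 and 1056 CPM in activated KO libraries. Every activated library was below every quiescent one, yet the log2 fold changes of -0.71 and -0.68 (SE 0.28 each) had adjusted p = 0.059 and 0.0629 by edgeR, and passed in DESeq2 (adjusted p = 0.0309 and 0.0218). *Eif4a2*, its paralog, had 505, 427, 637 and 576 CPM in quiescent WT, 509, 509, 466 and 633 CPM in quiescent KO, 331 and 364 CPM in activated WT and 367 and 576 CPM in activated KO libraries. It overlapped through KO activated replicate 2, with log2 fold changes of -0.63 and -0.17 (SEs 0.27 and 0.26, adjusted p = 0.0822 and 0.62 by edgeR), the latter 0.12 without KO activated replicate 1. The log2 fold changes of *Eif4g2* (DAP5), *Eif4a3*, *Eif4e3* and *Eif4h* lay between -0.60 and 0.51 and did not pass, and *Eif4e1b*, which had at most 0.965 CPM, did not either. The 2 members outside the roles, *Eif4a3l1* and *Eif4a3l2*, are 96.3 and 97% identical to *Eif4a3* where they align and had at most 1.33 CPM, and *Eif4a3l1* was at 0 in all activated libraries and did not pass.

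eIF3, a complex of many subunits, scaffolds the small ribosomal subunit, and its genes split. Among the 14 genes that encode it, *Eif3b*, *Eif3c*, *Eif3d*, *Eif3g* and *Eif3j2* rose in both genotypes, *Eif3i* rose in KO cells only (log2 fold change 0.71, adjusted p = 0.0407, against 0.50 and 0.15 in WT cells), *Eif3m* fell in both, and *Eif3f* fell in KO cells only (-0.78, adjusted p = 0.0174, against -0.52 and 0.0995). The difference of these changes between genotypes did not pass for any member. *Eif3i* lost its call without KO quiescent replicate 1 or 2 or KO activated replicate 1 (highest adjusted p = 0.454), *Eif3f* without either KO activated library (0.283), *Eif3b* in KO cells without KO activated replicate 1 (0.0857) and *Eif3c* in WT cells without WT activated replicate 2 (0.102). *Eif3g*, an RNA-binding subunit, had 65.3, 86.2, 89.8 and 104 CPM in quiescent WT, 102, 98.3, 89.6 and 111 CPM in quiescent KO, 202 and 204 CPM in activated WT and 211 and 155 CPM in activated KO libraries. All its activated libraries were above the quiescent ones, with log2 fold changes of 1.24 (SE 0.23, adjusted p = 0.000469 by edgeR) and 0.87 (0.24, adjusted p = 0.00815), the latter with an adjusted p of 0.218 without KO activated replicate 1. *Eif3m* had 16, 13.1, 15.6 and 14.4 CPM in quiescent WT, 12.4, 21.9, 15 and 16 CPM in quiescent KO, 8 and 4.82 CPM in activated WT and 4.88 and 6.62 CPM in activated KO libraries. Its activated libraries all lay below the quiescent ones, and it fell by 1.16 (SE 0.36, adjusted p = 0.02 by edgeR) and 1.50 (0.36, adjusted p = 0.00358). The WT call of *Eif3m* was lost without WT activated replicate 1 or 2 (adjusted p = 0.0531 and 0.266) and the KO call without KO activated replicate 1 (0.0758). The log2 fold changes of *Eif3a*, *Eif3e*, *Eif3h*, *Eif3j1* and *Eif3l* lay between -0.64 and 0.69 and did not pass. *Eif3k*, a peripheral subunit, had 8.46, 8.44, 9.52 and 14 CPM in quiescent WT, 11.9, 13.2, 8.6 and 13.3 CPM in quiescent KO, 7.51 and 8.76 CPM in activated WT and 12.3 and 15.3 CPM in activated KO libraries. The ranges overlapped, and its log2 fold changes of -0.33 and 0.24 did not pass (adjusted p = 0.481 and 0.587 by edgeR).

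Apart from eIF3j, a loosely bound factor, 5 eIF3 subunits (a, b, c, g and i) are shared with budding yeast and the other 7 are not, a grouping that was made after the values were seen and was given no test. Of the 5 shared ones 3 rose in WT and 4 in KO cells and none fell, with log2 fold changes from 0.30 to 1.25. Of the other 7, only *Eif3d* rose in each genotype, and 1 fell in WT and 2 in KO cells, with log2 fold changes from -1.50 to 1.32. The authors' group values of FPKM are a level per length of a gene's annotated exons. In FPKM the 12 subunits ranged from 2.36 (*Eif3e*) to 55.5 (*Eif3b*) in quiescent WT cells, and from 1.86 to 139 in activated WT cells. The joined exons came to 6719 bases for *Eif3e* and 3346 for *Eif3b*, and the part of such lengths in this range was not tested.

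For 7 pairs of paralogs, the counts of the first gene were taken as a percentage of the counts of both, a value that does not depend on how libraries are scaled. *Eif4e* took 65.8, 69.9, 70.5 and 75.6% of the counts of *Eif4e* and *Eif4e2* in quiescent WT, 63.5, 69.5, 70.7 and 73.3% in quiescent KO, 60.8 and 65.1% in activated WT and 59.3 and 57.8% in activated KO libraries. The activated share was lower on average by 9.11 percentage points, without overlap within either genotype. *Eif4ebp1* took 13.7, 17.2, 21.3 and 24.9% of the counts of *Eif4ebp1* and *Eif4ebp2* in quiescent WT, 10.1, 26.7, 16.5 and 24.6% in quiescent KO, 36.7 and 32.9% in activated WT and 40.2 and 41.8% in activated KO libraries. The activated share of *Eif4ebp1* was higher by 18.5 percentage points, without overlap. *Eif1* fell by 3.8 percentage points of the counts of *Eif1* and *Eif1b*, from 95.8 to 97.4% in quiescent to 91.6 to 94% in activated libraries, and *Eif1a* by 7.7 points of the counts of *Eif1a* and *Eif1ax*, from 72.4 to 78.1% to 61 to 72%. These 4 differences had p = 0.00444 in a two-sided exact permutation test within genotype, the smallest that its 225 arrangements can give (adjusted over the 7 pairs, 0.00778). The differences for *Eif4a1* and *Eif4a2* (-3.87 points, p = 0.124), *Eif4g1* and *Eif4g3* (-1.68 points, p = 0.511) and *Eif5a* and *Eif5a2* (-0.0549 points, p = 0.916) did not pass the exact permutation test. In each of these 3 pairs the lowest share of all was in KO activated replicate 2, at 64.7, 75.4 and 98%.

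**Figure D3:**
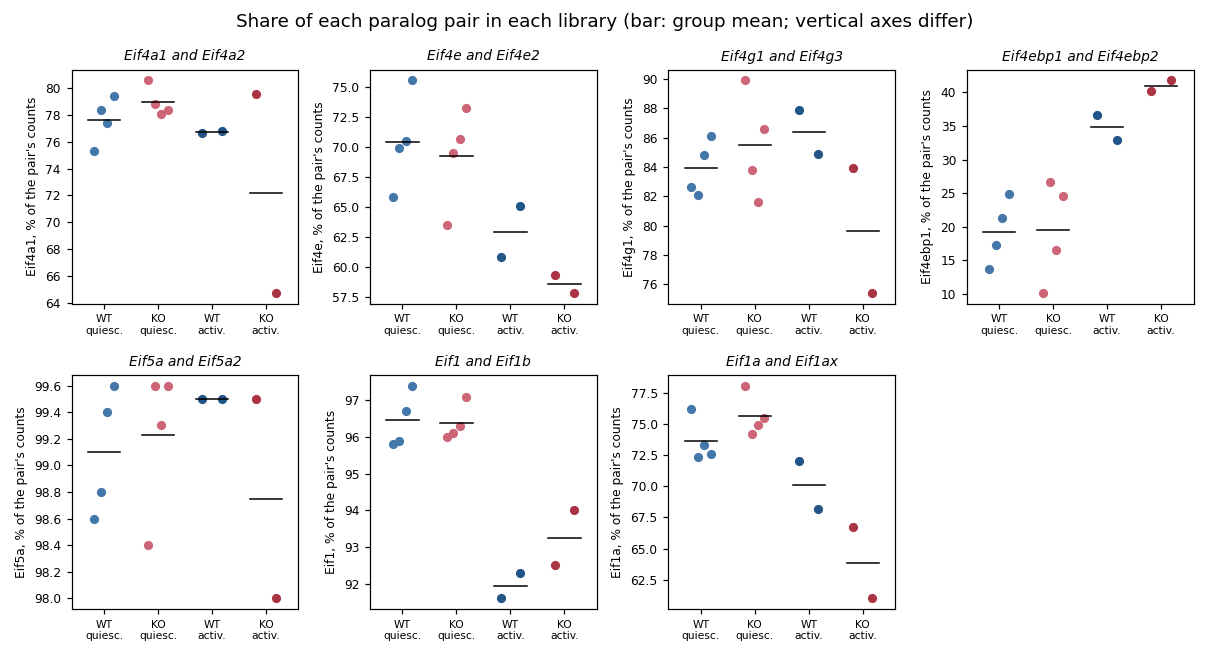
The vertical axis of each panel is the percentage of a paralog pair's counts taken by its first gene, with a point for each library and a bar at each group mean; the axes do not start at 0 and differ between panels. *Eif4ebp1* lies at 10.1 to 26.7% in quiescent and 32.9 to 41.8% in activated libraries, and *Eif1* at 95.8 to 97.4% and 91.6 to 94%.

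Copies in the genome can share reads with some of these genes, and the sources used here do not state how reads with several matches were counted. In GENCODE M21 transcripts, 60 other annotated genes matched 21 members with 90% identity or more across 80% or more of their own length, and are called copies here. *Eif4a1* and its processed copy *Eif4a-ps4* (GRCm38 chromosome 1, 60703932 to 60705149, plus strand, which no other annotated gene overlaps) show how close they are. Over the 1218 bases of the copy, which is as long as the coding sequence of *Eif4a1*, the alignment held a single substitution, G550A, counted from the first base of the *Eif4a1* mRNA, whose coding sequence runs from base 17 to 1234. The stretch around it is shown with that base in capitals, for *Eif4a1* from 2 joined exons (chr11:69668709-69669083, minus strand) and for the copy from chr1:60704440-60704490 (plus strand):
Eif4a1: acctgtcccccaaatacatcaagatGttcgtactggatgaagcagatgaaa
Eif4a-ps4: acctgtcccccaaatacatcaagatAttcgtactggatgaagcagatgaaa
Reads that do not cover this base match both genes equally well within the copy. *Eif4a-ps4* had 23.7, 27.2, 31.4 and 30.2 CPM in quiescent WT, 30.6, 30.7, 21.2 and 30.8 CPM in quiescent KO, 105 and 127 CPM in activated WT and 128 and 121 CPM in activated KO libraries. It ran against *Eif4a1*, with every activated library above every quiescent one. Together 3 copies took 1.31 to 1.82% of the counts of *Eif4a1* and its copies in quiescent libraries and 8.2 to 11% in activated libraries. With these copies added, *Eif4a1* had log2 fold changes of -0.59 in WT and -0.56 in KO cells, which did not pass (adjusted p = 0.108 and 0.118 by edgeR).

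*Eif3j2*, a member, is itself 99.4% identical to *Eif3j1* over 2379 bases. It had 6.37, 7.31, 7.24 and 9.68 CPM in quiescent WT, 5.79, 7.93, 6.4 and 9.63 CPM in quiescent KO, 24.5 and 33.3 CPM in activated WT and 19 and 55.4 CPM in activated KO libraries. All activated libraries were above the quiescent ones, with KO activated replicate 2 the highest. *Eif3j2* had log2 fold changes of 1.91 (SE 0.36, adjusted p = 0.000447 by edgeR) and 2.33 (0.35, adjusted p = 4.56e-05), the latter 1.37 without KO activated replicate 2, and its split from *Eif3j1* is uncertain. *Eif3j1* had 0.69 and 0.52 (adjusted p = 0.073 and 0.16), and the sum of both genes 0.83 and 0.75 (adjusted p = 0.0313 and 0.0454). The single copy of *Eif3m* took 2.95 to 11.9% of the shared counts in quiescent and 19.7 to 31.2% in activated libraries, and with that copy added *Eif3m* fell by 0.86 in WT (adjusted p = 0.0636) and by 1.23 in KO cells (adjusted p = 0.00965). The copy of *Eif2s2* went from 1.72 to 3.47% in quiescent to 6.71 to 15.8% in activated libraries. For *Eif3e* and *Eif3h* KO activated replicate 2 had the highest copy share, at 31.4 and 16.9%.

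**Figure D4:**
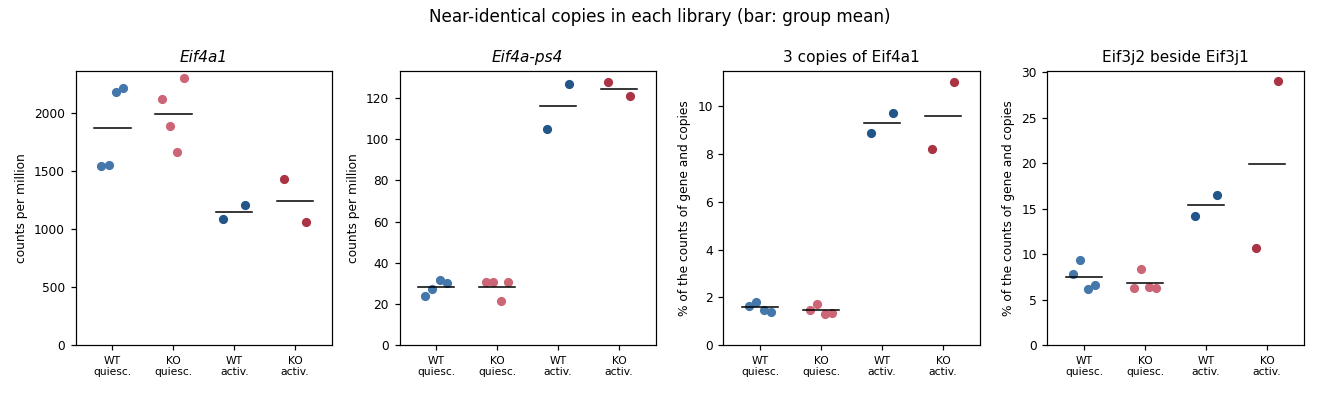
The panels at left show CPM of *Eif4a1* and of its copy *Eif4a-ps4*, and those at right the percentage of the counts of a gene and its copies taken by the 3 copies of *Eif4a1* and by *Eif3j2*, with a point for each library and a bar at each group mean. *Eif4a-ps4* rises from 21.2 to 31.4 CPM in quiescent to 105 to 128 CPM in activated libraries while *Eif4a1* is lower in all activated libraries.

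Promoter sequences (250 bases before to 50 after a gene's start, RefSeq, GRCm38.p6) matched 42 of the 55 genes by symbol. A few short words were searched after the values were seen, on both strands except where stated, and at any start of a gene. The ETS-type word CCGGAAGT was in 8 of the 42 (4.31% of 27025 genes with a promoter) and the E-box CACGTG in 10 (8.09%). TGATGNAA, the word of the ATF4 response, was in 0 of 42 (4.51%) and TGACGTCA in 0 (2.03%). A C followed by 4 pyrimidines within 5 bases of the start, as in mRNAs under mTORC1 control, was searched only in the direction of the gene. This pattern was at 12 of 42 (21.2%). It was at 5 of 15 that rose in both genotypes and 0 of 4 that fell in both. Of those called in 1 genotype 2 of 4 had it, and of those called in neither 5 of 19. Of the 15 matched genes that rose in both genotypes, 5 had CCGGAAGT and 0 had CACGTG. Among the 4 called in 1 genotype, 2 had CCGGAAGT and 3 had CACGTG. *Eif5a*, called only in WT cells, and *Eif5a2*, called only in KO cells, had both words. Among the 19 called in neither genotype, 1 had CCGGAAGT and 7 had CACGTG, and the 4 that fell in both had 0 of either. The windows around these words are shown for 2 of the genes that rose and for 2 genes of eIF4F, with the word in capitals, read in the direction of the gene:
Eif3d: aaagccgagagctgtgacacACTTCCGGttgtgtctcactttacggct
Eif4e2: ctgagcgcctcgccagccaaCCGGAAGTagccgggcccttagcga
Eif4g1: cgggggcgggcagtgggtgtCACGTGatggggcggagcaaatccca
Eif4a1: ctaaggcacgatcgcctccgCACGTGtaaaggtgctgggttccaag
They lie at chr15:77970868-77970915 (minus strand), chr1:87213896-87213940 (plus), chr16:20672653-20672698 (plus) and chr11:69672587-69672632 (minus). The words of *Eif3d* and *Eif4a1* begin 71 and 189 bases before the RefSeq start and lie outside the GENCODE gene. *Eif4e2* has 3 RefSeq starts, and its word begins 5 or 2 bases after or 23 bases before them, in an annotated exon. The word shown for *Eif4g1* begins 54 bases before the RefSeq start but inside the GENCODE gene, which starts farther upstream, and in none of its exons. Another CACGTG of *Eif4g1*, not shown, begins 15 bases after the RefSeq start and lies in an annotated exon. A match is a description of the letters only.

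KO and WT cells were compared next, to ask whether loss of *Cxcr4* went with other levels of these mRNAs. No member passed in quiescent cells (0.00776% of all genes were called higher and 0.00776% lower), in activated cells (0.031% and 0.0194%) or for the difference between the states (0% and 0%). With edgeR 0 members had an unadjusted p under 0.05 in each of these comparisons, beside 448, 2158 and 1699 of all genes, and DESeq2 also called 0. In the quiescent state the KO and WT libraries of all 55 members overlapped, a count that was not made over all genes. The 52 members over 1 CPM had log2 fold changes of KO over WT from -0.61 to 0.22 in quiescent cells, with a median standard error of 0.22, and from -0.70 to 1.00 in activated cells, with a median standard error of 0.31. With 2 libraries against 2, changes well beyond these median errors could also be missed. *Eif5a2*, at 1.00 (SE 0.56) in activated cells, was not called. The lack of calls therefore does not show that these mRNAs were unchanged.

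The members with the smallest p were these. In quiescent cells *Eif3g* and *Eif4e2* had log2 fold changes of KO over WT of 0.22 (SE 0.20) and 0.20 (0.19), with unadjusted p = 0.286 for *Eif3g* by edgeR. In activated cells they were *Eif3k*, with 0.78 (SE 0.42, unadjusted p = 0.0767 by edgeR), and *Eif5a2*, with 1.00 (0.56, unadjusted p = 0.0889). For the difference between the states they were *Eif5a2*, with 1.20 (SE 0.67, unadjusted p = 0.0901 by edgeR), and *Eif4g3*, with 0.66 (0.38, unadjusted p = 0.0995). None of the 7 paralog shares differed between quiescent KO and WT libraries in the exact permutation test (lowest adjusted p = 0.9).

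**Figure D5:**
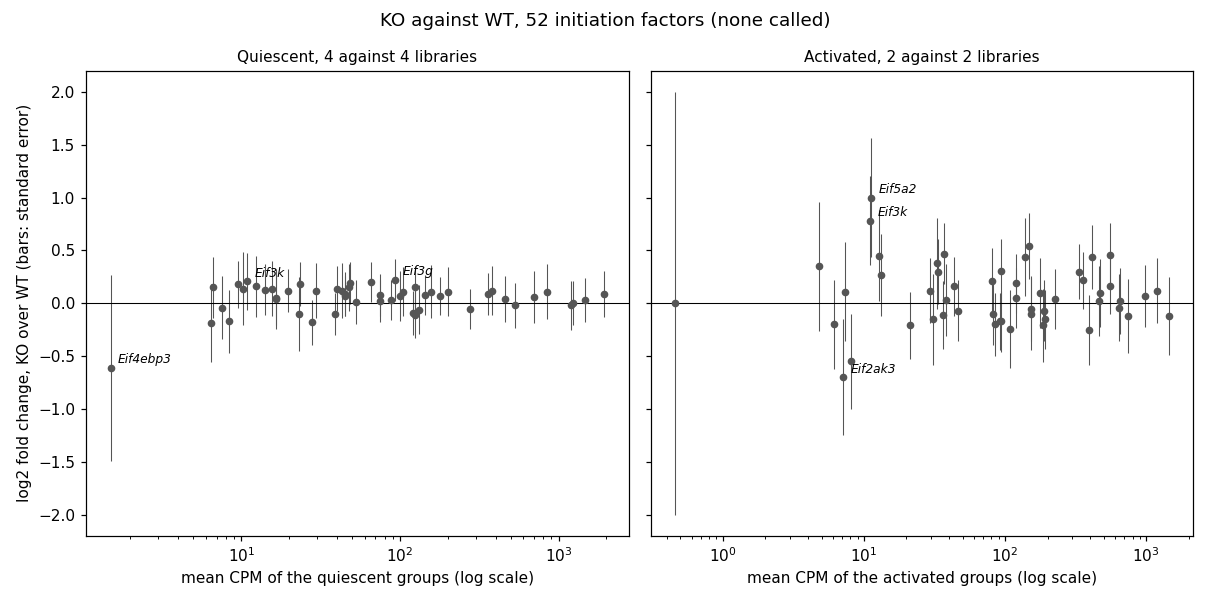
The log2 fold change of KO over WT (vertical axis, with standard error) is plotted against the mean CPM of the compared groups (log scale) for 52 initiation factors, in quiescent cells (left) and activated cells (right), with the 3 farthest from 0 named. No point passed edgeR's test, and the values run from -0.61 to 0.22 on the left and from -0.70 to 1.00 on the right.

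The other genes of the pathway were read from a list of 34 regulators, partner proteins and elongation and termination factors, all of which were tested. In WT cells 10 were higher and 8 lower on activation, and in KO cells 11 were higher and 6 lower, while 0 passed in the comparisons of KO and WT. As shares of the list these are 29.4% and 23.5% in WT and 32.4% and 17.6% in KO cells, beside the 11.5% and 18.3% and the 13.3% and 20.4% of all genes, so that the shares that fell were near the background. The 3 that rose most in WT cells were *Eef1a2*, the elongation factor of muscle fibres and neurons (log2 fold change 3.77, adjusted p = 7.05e-06 by edgeR), *Denr*, which acts in reinitiation (3.30, adjusted p = 3.96e-08), and *Pabpc4*, a poly(A)-binding protein (3.13, adjusted p = 2.39e-08). *Denr* had 6.84 to 12.6 CPM in quiescent and 81 to 115 CPM in activated libraries, whereas its partner *Mcts1* had log2 fold changes of 0.09 and 0.13 (adjusted p = 0.879 and 0.813). The 3 that fell most were *Ppp1r15a* (GADD34), which fell by 2.17 (adjusted p = 2.59e-05), *Pdcd4*, an inhibitor of eIF4A, by 1.82 (adjusted p = 0.000413), and *Ppp1r15b* (CReP), by 1.60 (adjusted p = 0.000247). GADD34 and CReP are the subunits that direct a phosphatase to eIF2 alpha. *Dohh* and *Dhps*, the enzymes that make hypusine on eIF5A, rose by 2.01 and 0.90 in WT (adjusted p = 7.04e-05 and 0.0241) and by 2.07 and 1.76 in KO cells (adjusted p = 4.1e-05 and 7.5e-05).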

How the data were processed

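RNA-seq counts of 4 WT and 4 KO quiescent and 2 WT and 2 KO activated libraries of sorted satellite cells were analysed. The authors trimmed the reads with Trim Galore 0.6.0, mapped them to GRCm38.p6 with STAR 2.7.2a and counted them with Rsubread on the genes of GENCODE M25. The deposited counts are raw whole numbers per gene. FPKM, which the authors deposited as 1 value per group, served only for levels per length and carry no error. How reads with several matches were counted is not given in the sources used here. Groups come from the sample labels.

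Genes with few counts were removed by filterByExpr, which left 25771 genes, libraries were scaled by TMM and 1 model with a mean per group was fitted to all 12 libraries with edgeR 4.0.16 (quasi-likelihood F test, Benjamini-Hochberg adjustment over all genes). A gene was called at an adjusted p under 0.05. Alternatives were DESeq2 1.42.0, its size factors, upper quartile scaling, removal of the ribosomal RNA gene, no filter, a rule of fold over 2 and mean count over 10, the compared groups alone, thinning to the shallowest library, a replicate block, and a fit without each library in turn. Copies were matched with BLAST 2.17.0, and adding them to their parents was chosen after seeing the data. The members and lists were chosen with earlier results of these data known. Values in every library are given for the called member that rose and the one that fell most in each role, for the smallest p between genotypes, and for 11 members fixed by name.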

Additional observations from a re-analysis of the deposited data

Results flagged for a closer look

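*Eif4a-ps4*, an annotated copy that is not among the 55 members, had signal outside the members' comparisons that rose on activation. The change on the log2 scale was 2.04 (SE 0.23, adjusted p = 2.21e-06 by edgeR) in WT and 2.13 (0.23, adjusted p = 1.13e-06) in KO cells, and it did not differ past the threshold between KO and WT. Since 1 base in 1218 separates it from the coding sequence of *Eif4a1*, its counts and those of *Eif4a1* cannot be fully told apart, and their source was not tested. Among 62 groups of 4 libraries examined for a library far from the rest, 0 had one, where about 1 in 20 is expected by chance. Only the quiescent groups have 4 libraries, so this check did not cover the activated libraries. It therefore left out KO activated replicate 2, which had 20.3 CPM of *Eif5a2* against 9.76 CPM in KO activated replicate 1.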

How the results depend on the processing

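The counts of members called on activation stayed within 1.5 times of the reported ones under both scalings, removal of the ribosomal RNA gene, no filter, thinning, the compared groups alone and DESeq2. Under a rule of fold over 2 and mean count over 10, 3 members were lower in WT and 3 in KO cells. Leaving out each library gave 15 to 20 higher and 2 to 5 lower members in WT and 13 to 25 higher and 2 to 7 lower in KO cells. With the replicate block, 25 were higher and 5 lower in WT and 25 higher and 7 lower in KO cells. The block made *Eif4e* in WT (0.76, adjusted p = 0.0161 by edgeR) and *Eif4g3* (0.83, 0.0102) and *Eif5a* (0.97, 0.00686) in KO cells pass, and ended the call of *Eif5a2* in KO cells (1.12, 0.107). The labels do not say whether libraries of the same replicate number belong together. Residual correlations of the same number were 0.05, 0.122, -0.05 and 0.296 in quiescent cells, and those of different numbers ran from -0.208 to 0.0753. Quiescent WT and KO libraries of the same number had similar depth (17532019 and 17238391, 12775593 and 13075208, 23058947 and 22897189, 22785815 and 23717013 counts). With 2 libraries per group, the activated values can differ only in sign (-0.0236 for the same number), so they cannot decide this. Changes of sign, all in values that were not called, were these. In WT cells thinning gave 0.06 for *Eif3k* and 0.01 for *Eif4g3*, and the replicate block gave 0.13 for *Eif4g3* and -0.06 for *Eif5a2*. In KO cells *Eif4g1* had 0.02 with DESeq2 or its size factors, 0.01 without the ribosomal RNA gene, 0.03 on the compared groups, 0.11 thinned and 0.24 with the replicate block. Leaving out libraries gave -0.33 to 0.27 for *Eif4g1*, -0.16 to 0.31 for *Eif4e* and -0.51 to 0.12 for *Eif4a2* in KO cells, -3.82 to 0.456 percentage points for the share of *Eif4g1* over *Eif4g3*, and -0.431 to 0.321 for *Eif5a* over *Eif5a2*. No comparison of KO and WT called a member under any alternative. Thinning to the shallowest library gave 22 and 24 higher members in WT and KO cells. That fit tested 14697 genes, with median log2 fold changes over all genes of -0.15 in WT and -0.16 in KO cells. The share of all genes called was not counted under the alternatives, so these member counts have no background beside them. The cause of the changes between settings was not tested.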
